A study of Oryza sativa with 6 samples.

Results

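The 10 genes described here make, inactivate or sense gibberellin in rice. They are the gibberellin 20-oxidases GA20ox1, GA20ox2 (SD1) and GA20ox3, the gibberellin 3-oxidases GA3ox1 and GA3ox2, the gibberellin 2-oxidases GA2ox1, GA2ox3 and GA2ox6, the repressor SLR1 and the receptor GID1. They were chosen by locus identifier from 39217 gene models in a table of read counts. The rule uses no measured value, but the genes were chosen with earlier results of these data known. The counts came from whole grains of field-grown rice at 3 days after pollination. ZH11, a japonica cultivar labelled as wild type, was compared with the drw1 mutant, with 3 libraries of each genotype. The labels name neither another treatment or allele nor how the mutation arose. Whether replicates are different plants is not stated, so the tests cover only the scatter among these libraries, and that scatter may be technical. The mutant's columns carry the prefix C4, and the title of the table has ctf4 where the labels have drw1, a name the labels do not link to it. These columns were taken as drw1 because the series holds no other genotype, and every direction given below rests on this. The mutated gene is not paired with a locus in the sources used here, so its own expression was not checked.

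Gibberellins are plant hormones that promote growth by removing a repressor. The 20-oxidases carry out the late steps that lead to the precursors of active gibberellin, the 3-oxidases make the active hormone from these precursors, and the 2-oxidases inactivate the hormone or its precursors. Active gibberellin binds the receptor GID1 in the nucleus, GID1 then binds the DELLA protein SLR1, and SLR1 is degraded. In rice, transcripts of several 20-oxidases and 3-oxidases are known to fall, and those of several 2-oxidases to rise, after gibberellin is supplied. In cereal grains the hormone is best known from germination, when gibberellin from the embryo switches on amylase genes in the aleurone.

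Library totals ran from 15582373 to 24147797 counts. Changes between the genotypes were widespread: among the 23395 tested genes, edgeR called 70.1% at an adjusted p of 0.05 (quasi-likelihood test, Benjamini-Hochberg), 35.7% upward and 34.4% downward in drw1. This near balance depends on the scaling, since 8356 genes were higher and 8039 lower with TMM factors, 10375 and 6552 with library totals alone, and 9783 and 6925 with upper-quartile factors. Called changes that reached 2-fold made up 27.3% of tested genes, 12.7% upward and 14.6% downward. For 72.6% of genes, the ZH11 and drw1 values were fully separate. Marker loci of grain tissues were assigned from memory. Of the 7 loci assigned to endosperm starch and storage genes, 7 were lower in drw1, none was at 0, and their summed level was 1358 to 1380 CPM (counts made comparable between libraries with TMM factors, here and below) in ZH11 and 108 to 119 CPM in drw1. The 5 loci assigned to the green pericarp were also all lower, with sums of 1036 to 1185 CPM in ZH11 and 598 to 644 CPM in drw1. The single nucellus locus, also called lower, had 115 to 130 CPM in ZH11 and 83.4 to 84.7 CPM in drw1. The 2 embryo loci together had 8.71 to 9.06 CPM in ZH11 and 6.30 to 9.28 CPM in drw1, and 1 of them was tested and was not past the threshold. In RNA from whole grains, fewer cells of a type and less RNA per cell cannot be told apart. The part of these tissue differences in the changes described below was not tested.

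In drw1 grains the gibberellin genes moved in both directions. GA3ox2, GA20ox1 and GA2ox3 rose, and GA2ox6, GA20ox3, GID1 and SLR1 fell. GA2ox1, a gene at trace level, also passed the test as higher, but its libraries overlapped between the genotypes. GA20ox2 was not past the threshold, and GA3ox1 was too low to test. In all, 9 of the 10 genes passed the filter on low counts, and 8 were called, 4 higher and 4 lower, where 70.1% of all tested genes were called. Of the 9 tested, 3 were called with a rise of at least 2-fold, GA2ox1 included, and 2 with a fall as large. Beside this, 27.3% of all tested genes were called with a change of at least 2-fold. The libraries of the genotypes were separate in 7 of the 9, beside 72.6% of tested genes. These shares were not tested against the rest of the table. GA2ox1 reached the level the filter asks for in 1 ZH11 library and 3 drw1 libraries. It thus entered the test through drw1, in which it is high, and the counts that include it are not a result about the 10 genes.

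Levels were compared between genes on the TPM scale, in which counts are divided by the deposited length of each gene model and scaled to the same total in every library. In ZH11 the most abundant was GID1 at 162 ± 7.99 TPM (SD, n = 3), followed by SLR1 at 145 ± 6.25 TPM. GA2ox3 came next at 62.5 ± 3.54 TPM and GA2ox6 after it at 38.6 ± 3.76 TPM. The synthesis genes in ZH11 lay lower and close together, with GA20ox3 at 26.8 ± 3.16 TPM, GA3ox2 at 23.4 ± 0.968 TPM, GA20ox1 at 20.6 ± 2.49 TPM and GA20ox2 at 19.1 ± 2.21 TPM. The ranges in TPM over libraries overlapped for GA3ox2 and GA20ox1 and for GA20ox1 and GA20ox2. Within each of the 3 ZH11 libraries GA3ox2 was above GA20ox1 and GA20ox1 above GA20ox2 in TPM. GA2ox1 and GA3ox1 were near the bottom, at 0.501 ± 0.193 TPM and 0.249 ± 0.0430 TPM.

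The order in TPM changed in drw1, where GA3ox2 was the most abundant of the 10 at 170 ± 9.10 TPM (SD, n = 3). In CPM, GA3ox2 stayed below SLR1 in every drw1 library, with means of 172 CPM for GA3ox2 and 204 CPM for SLR1. In TPM, SLR1 followed at 119 ± 4.37 TPM. GA2ox3 at 107 ± 2.98 TPM and GID1 at 104 ± 8.18 TPM overlapped, and their order differed between libraries, with GID1 above GA2ox3 only in drw1 library 2. GA20ox1 stood at 53.5 ± 6.28 TPM, well above GA20ox2 at 18.9 ± 2.25 TPM and GA20ox3 at 11.3 ± 0.612 TPM. GA2ox6 had fallen to 3.54 ± 0.186 TPM. Among all tested genes, 37.8% lay at or above GA3ox2 in ZH11 and 4.06% in drw1, whereas for GA2ox6 the shares were 24.9% in ZH11 and 80.5% in drw1.

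**Figure D1:**
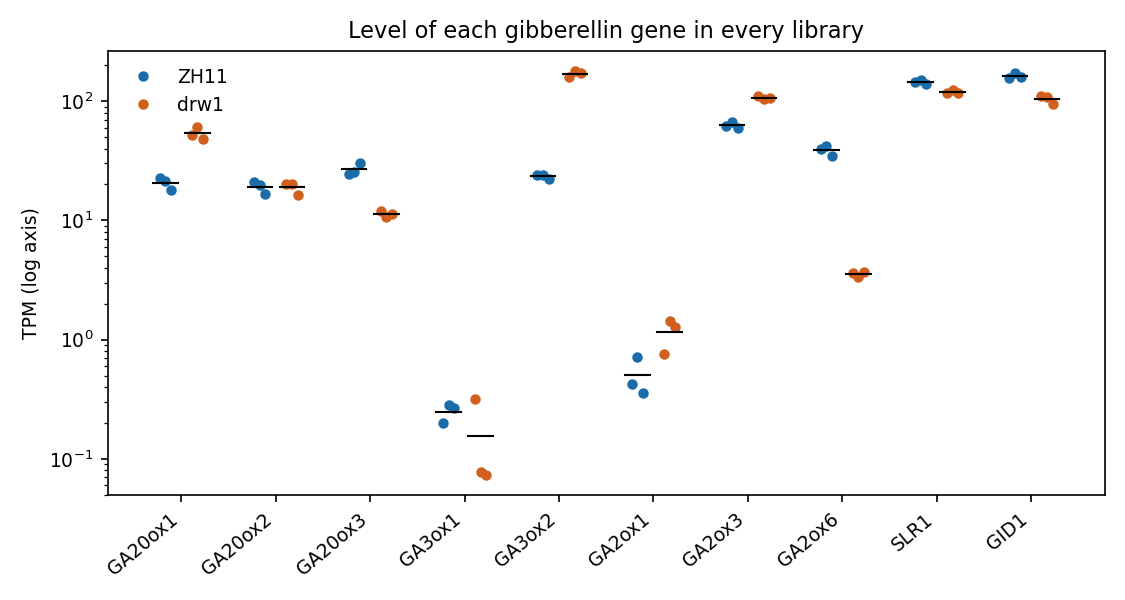
Level of each gene in TPM (log axis) in the 3 ZH11 libraries (blue) and the 3 drw1 libraries (orange), with a black line at each mean. GA3ox2 rose from 23.4 to 170 TPM on average and GA2ox6 fell from 38.6 to 3.54 TPM, while GA20ox2 lay at 19.1 and 18.9 TPM.

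The 20-oxidases did not move together. GA20ox1 (LOC_Os03g63970, chromosome 3), which in rice is expressed mainly in reproductive organs, had 27.9, 25.5 and 20.5 CPM in ZH11 libraries 1 to 3 and 57.4, 67.9 and 55.8 CPM in drw1 libraries 1 to 3. Every drw1 library was above every ZH11 library. The gene rose 2.44-fold, or 1.28 in log2 units (standard error 0.10, edgeR adjusted p = 7.2e-09), and 9.02% of tested genes rose at least as far.

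GA20ox2 (LOC_Os01g66100, chromosome 1) is the semi-dwarf gene SD1, whose loss shortens the stem in many modern rice cultivars. It had 22.6, 20.7 and 16.8 CPM in ZH11 and 19.8, 19.6 and 16.5 CPM in drw1. The genotypes overlapped, and ZH11 library 3 and drw1 library 3 were the lowest of their groups. The difference in log2 units was -0.11 (standard error 0.12, edgeR adjusted p = 0.40), with a 95% interval from -0.35 to 0.13, and its sign turned to 0.05 when library totals alone were used as scaling. The interval lies within a 1.5-fold change in either direction, and a smaller change cannot be told from none.

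GA20ox3 (LOC_Os07g07420, chromosome 7) had 18.9, 19.0 and 21.9 CPM in ZH11 and 8.25, 7.49 and 8.13 CPM in drw1. The groups were separate, with every drw1 library under the lowest ZH11 library. The fall was 2.50-fold, or -1.32 in log2 units (standard error 0.11, edgeR adjusted p = 1.1e-08), and 10.4% of tested genes fell at least as far.

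Because GA20ox1 rose and GA20ox3 fell, the make-up of the family differed between the genotypes. Shares within a library do not depend on the scaling between libraries. Per base of gene length, GA20ox1 made up 30.9% ± 3.05 of the 3 genes in ZH11 and 63.9% ± 2.39 in drw1 (SD, n = 3). GA20ox3 went from 40.4% ± 5.75 to 13.5% ± 1.64, and GA20ox2 from 28.7% ± 2.70 to 22.5% ± 1.48. The GA20ox2 difference of -6.16 percentage points was -9.42 when counts were not divided by gene length. Which gene led in ZH11 also depends on this division. Per base, GA20ox3 led in every ZH11 library. By counts, GA20ox1 led in ZH11 library 1 (515 against 349 for GA20ox3) and library 2 (582 against 435). In ZH11 library 3, GA20ox3 led by counts as well (327 against 306 for GA20ox1). Single libraries varied more for GA20ox3 in ZH11, from 36.0% to 46.9%, than in drw1, from 11.7% to 14.8%. The summed level of the 3 genes was 66.5 ± 1.54 TPM in ZH11 and 83.6 ± 7.65 TPM in drw1.

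GA3ox2 (LOC_Os01g08220, chromosome 1) is the dwarf gene D18, the main 3-oxidase of vegetative organs in rice. Of the 10 genes it had the largest rise. It had 26.7, 25.5 and 23.1 CPM in ZH11 and 160, 180 and 177 CPM in drw1. The lowest drw1 library was far above the highest ZH11 library. The rise was 6.84-fold, or 2.78 in log2 units (standard error 0.08, 95% interval 2.61 to 2.94, edgeR adjusted p = 5.8e-15). Of the tested genes, 2.16% rose at least as far.

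GA3ox1 (LOC_Os05g08540, chromosome 5), the 3-oxidase known from rice flowers, was read only a few times in either genotype. It had 3, 5 and 3 counts in the ZH11 libraries and 4, 1 and 1 counts in the drw1 libraries. The sums were 11 counts (ZH11) and 6 counts (drw1), and the depth-scaled ratio of drw1 to ZH11 was 0.580 with a 95% counting interval (exact binomial) of 0.176 to 1.71, which covers counting error only. A difference was not detectable at this depth. GA3ox2 therefore held 98.9% ± 0.198 of the summed 3-oxidase level in ZH11 and 99.9% ± 0.0881 in drw1 (SD, n = 3).

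The 2-oxidases also split. GA2ox6 (LOC_Os04g44150, chromosome 4), which acts on early gibberellin precursors, had 37.3, 37.4 and 30.1 CPM in ZH11 and 3.04, 2.82 and 3.21 CPM in drw1. The genotypes were far apart, and the drw1 libraries lay within a narrow range. It fell 11.6-fold, or -3.53 in log2 units (standard error 0.13, 95% interval -3.81 to -3.26, edgeR adjusted p = 1.6e-13), the largest change among the 10 genes. Only 265 tested genes, or 1.13%, fell at least as far.

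GA2ox3 (LOC_Os01g55240, chromosome 1), which acts on active gibberellin, moved the other way. It had 78.0, 79.4 and 69.0 CPM in ZH11 and 124, 119 and 124 CPM in drw1. The groups did not overlap, and the rise was 1.61-fold, or 0.69 in log2 units (standard error 0.07, edgeR adjusted p = 9.9e-08). A rise of this size or more was found in 19.8% of tested genes.

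GA2ox1 (LOC_Os05g06670, chromosome 5) had 8, 16 and 5 counts in ZH11 and 12, 23 and 22 counts in drw1, which is 0.434, 0.700 and 0.335 CPM against 0.688, 1.33 and 1.22 CPM. ZH11 library 2 lay above drw1 library 1, so the genotypes overlapped. Only 1 ZH11 library, against 3 drw1 libraries, reached the level the filter asks for, so the gene entered the test through the drw1 libraries. The difference in log2 units was 1.07 (standard error 0.41, edgeR adjusted p = 0.028). The call was lost with DESeq2 (adjusted p = 0.093) and when ZH11 library 1 or 3, or drw1 library 2 or 3, was left out (edgeR adjusted p of 0.075, 0.090, 0.11 and 0.084). The stricter filter removed the gene from testing, and over the other 13 alternatives the adjusted p ran from 0.012 to 0.11 (edgeR, DESeq2 or limma).

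Within the 2-oxidases, GA2ox3 made up 61.6% ± 1.22 of the summed level in ZH11 and 95.8% ± 0.349 in drw1 (SD, n = 3). GA2ox6 went from 38.0% ± 1.14 to 3.17% ± 0.135. In TPM, the fall of GA2ox6 and the rise of GA2ox3 largely offset each other in the sum. This sum was 102 ± 7.38 TPM in ZH11 and 112 ± 2.73 TPM in drw1. The genotypes were only just separate, with ZH11 library 2 highest at 108.6 TPM and drw1 library 2 lowest at 109.4 TPM. Summed in CPM, every drw1 library was also above every ZH11 library, by a wider gap.

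**Figure D2:**
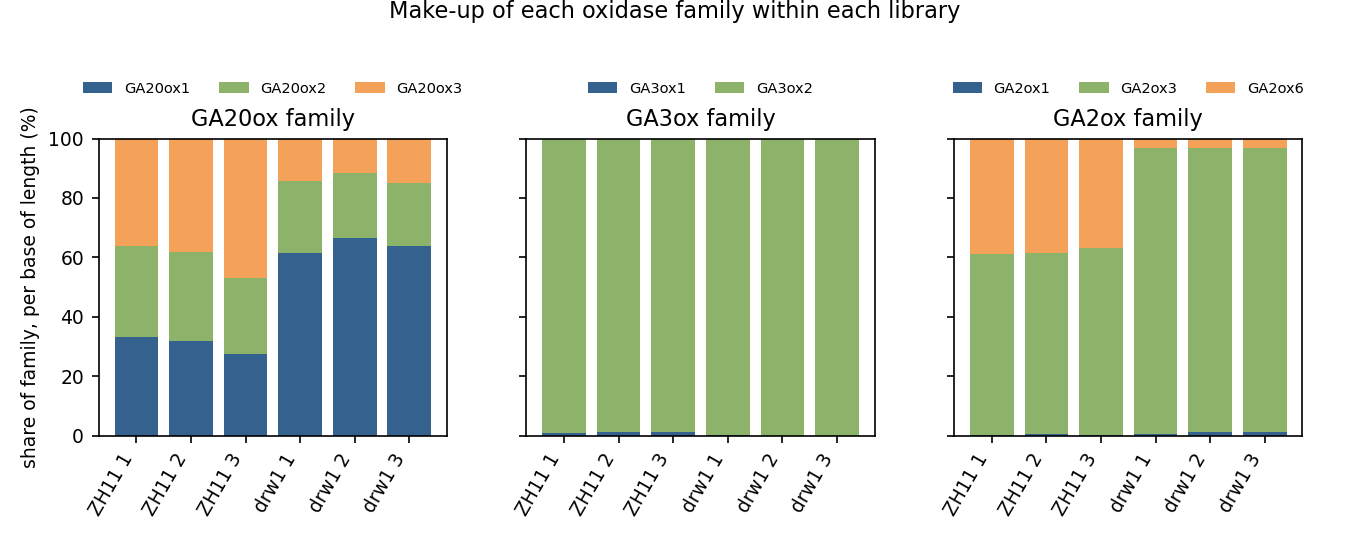
Share of each gene in the summed level of its oxidase family (percent, counts per base of gene length), 1 bar per library, for GA20ox (left), GA3ox (middle) and GA2ox (right). GA20ox1 grew from 30.9% to 63.9% of its family and GA2ox3 from 61.6% to 95.8%, while GA3ox2 made up nearly all of its family in both genotypes.

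The balance between the groups is described here by ratios within each library, which are free of the scaling between libraries and were not tested. The summed level of the 20-oxidases and 3-oxidases over that of the 2-oxidases was 0.897, 0.840 and 0.930 in ZH11 and 2.14, 2.47 and 2.23 in drw1. Transcripts of synthesis genes were thus below those of inactivation genes in every ZH11 library and above them in every drw1 library. Most of this came from GA3ox2. The ratio of 20-oxidases alone to 2-oxidases was 0.656 ± 0.0366 in ZH11 and 0.749 ± 0.0761 in drw1 (SD, n = 3), with overlapping libraries. This overlap depends on the division by gene length. In ratios of undivided counts, every drw1 library was above every ZH11 library. The ratio of 3-oxidases to 20-oxidases was 0.356 ± 0.00675 in ZH11 and 2.05 ± 0.183 in drw1.

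SLR1 (LOC_Os03g49990, chromosome 3), the single DELLA repressor of rice, was lower in drw1 by a modest amount. It had 274, 272 and 242 CPM in ZH11 and 197, 211 and 203 CPM in drw1. ZH11 library 3 was the lowest of its group and still above every drw1 library. The fall was 1.29-fold, or -0.37 in log2 units (standard error 0.06, edgeR adjusted p = 7.5e-05), and 30.9% of tested genes fell at least as far. SLR1 acts through its protein, whose amount was not measured.

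GID1 (LOC_Os05g33730, chromosome 5), the gibberellin receptor, had 221, 232 and 210 CPM in ZH11 and 140, 138 and 125 CPM in drw1. The groups were separate. It fell 1.65-fold, or -0.72 in log2 units (standard error 0.07, edgeR adjusted p = 3.2e-08), and 20.2% of tested genes fell at least as far. In TPM, the ratio of GID1 to SLR1 transcripts was 1.07, 1.14 and 1.15 in ZH11 and 0.941, 0.868 and 0.818 in drw1. The ratio was thus lower in every drw1 library than in any ZH11 library. Which transcript was the more abundant depends on the division by gene length (2017 bases for GID1, 2678 for SLR1). In CPM, SLR1 was above GID1 in every library of both genotypes, at means of 263 and 221 CPM in ZH11 and 204 and 134 CPM in drw1.

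**Figure D3:**
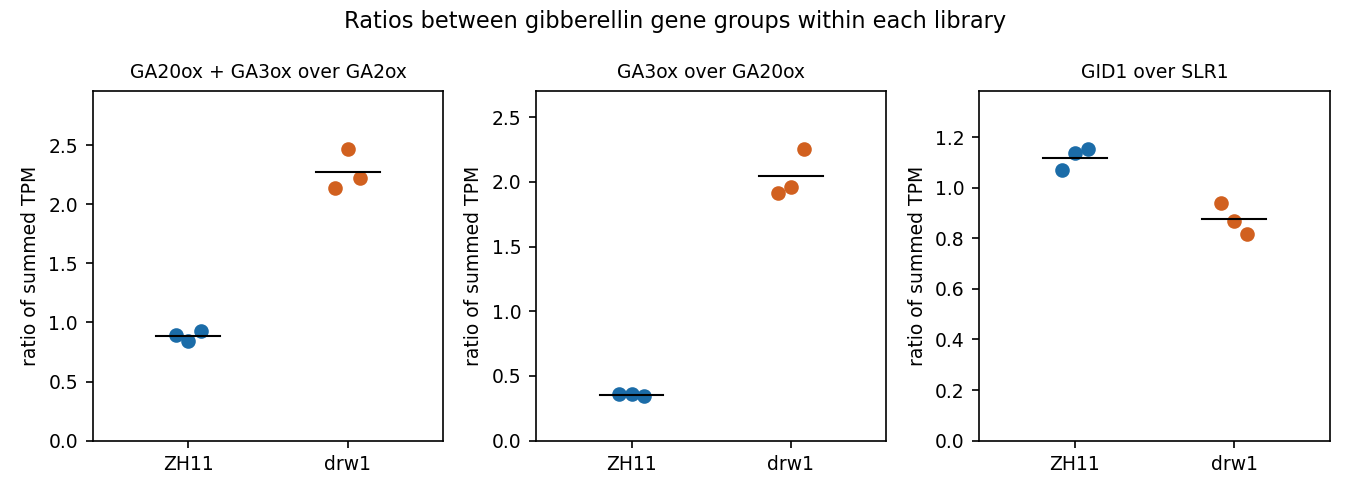
Ratios of summed TPM within each library (points) with the mean of each genotype (line): GA20ox and GA3ox over GA2ox (left), GA3ox over GA20ox (middle) and GID1 over SLR1 (right). The drw1 libraries lay above ZH11 in the left and middle panels, with means of 2.28 against 0.889 and 2.05 against 0.356, and below it in the right panel, at 0.875 against 1.12.

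**Figure D4:**
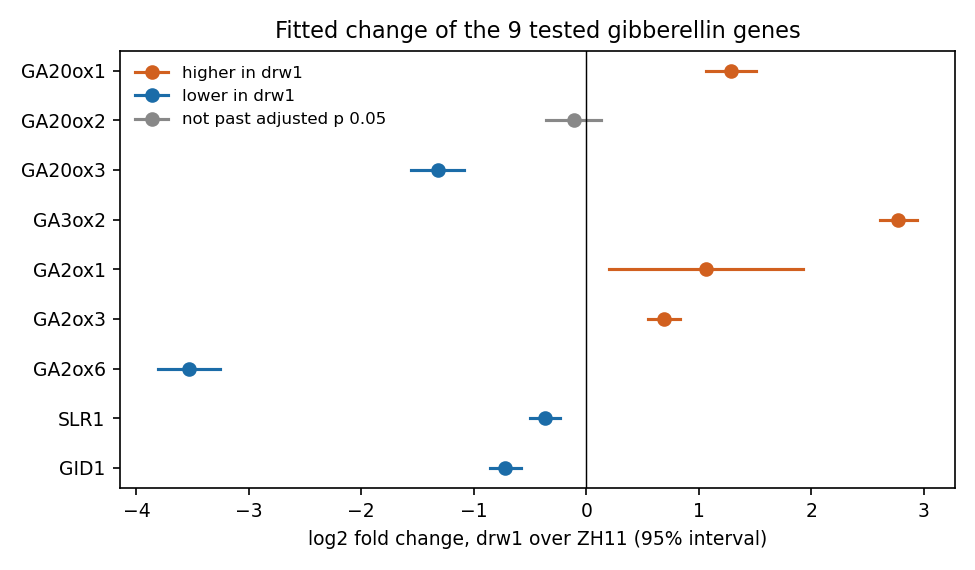
Log2 fold change of drw1 over ZH11 with its 95% interval for the 9 genes that passed the filter on low counts. Intervals ran from -3.81 to -3.26 for GA2ox6 and from 2.61 to 2.94 for GA3ox2, and GA20ox2 spanned 0.

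In 2 of the 3 oxidase families, members were called in opposite directions. The GA3ox family could not show this, since GA3ox1 was not tested. Loci near a changed gene were called in both directions, as were all tested genes, with 35.7% higher and 34.4% lower. The counts of neighbours below were not tested against these shares. GA3ox2, GA20ox2 and GA2ox3 all lie on chromosome 1 and had log2 fold changes of 2.78, -0.11 and 0.69. Among the 10 tested loci nearest to GA2ox6 in the order of identifiers, 4 were higher, 3 lower and 3 not past the threshold, with a median log2 fold change of -0.03 and a lowest value of -1.54. Around GA3ox2, 4 were higher, 1 lower and 5 not past the threshold, with a median of 0.21, although 1 neighbour reached 3.24. Around GA20ox3, 1 was higher, 5 lower and 4 not past it, with a median of -0.14 and a lowest value of -4.50. Around GA20ox1, 5 were higher, 2 lower and 3 not past it, with a median of 0.26. Over the neighbours of each of the 9 tested genes, medians ran from -0.23 (GID1) to 0.26 (GA20ox1).

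Further loci of the pathway were assigned from memory to 3 lists, because the deposited table and the reference do not pair identifiers with names. They are therefore given by identifier only. Of 19 loci listed, 18 were in the table and 16 were tested, of which 8 were higher and 7 lower in drw1, beside 35.7% higher and 34.4% lower among all tested genes. Their median log2 fold change was 0.16, beside 0.03 for all tested genes. Of the 8 higher loci, 3 entered the test only through the drw1 libraries, in which they are high, so neither the count nor the median is a result about the pathway.

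The early synthesis list was drawn up to hold the cyclases and oxidases that build the gibberellin skeleton and a further 20-oxidase. Of 5 tested loci, 3 were higher, 1 was lower and 1 was not past the threshold, where 70.1% of all tested genes were called. LOC_Os06g02019 rose from 0.960 ± 0.429 CPM (ZH11) to 5.80 ± 0.539 CPM (drw1; SD, n = 3), or 2.55 in log2 units (standard error 0.26, edgeR adjusted p = 1.4e-07). LOC_Os02g17780 rose from 0.926 ± 0.333 to 2.85 ± 0.772 CPM, or 1.62 in log2 units (standard error 0.32, edgeR adjusted p = 0.00022). Both entered the test through the drw1 libraries, since only 2 ZH11 libraries reached the level the filter asks for. The other loci of the list changed little. The fall of LOC_Os05g34854 (-0.31 in log2 units, standard error 0.13, edgeR adjusted p = 0.045) lost its call in 10 of 14 alternatives, where its adjusted p reached 0.30.

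The inactivation list was drawn up to hold other 2-oxidases and a cytochrome P450 that inactivates gibberellin in the uppermost stem internode. The count table held 7 of the listed loci, of which 5 could be tested, 3 higher and 2 lower, again beside 70.1% of all tested genes called. LOC_Os05g40384 rose from 6.20 ± 1.49 CPM (ZH11) to 26.0 ± 1.02 CPM (drw1; SD, n = 3), or 2.05 in log2 units (standard error 0.13, edgeR adjusted p = 3.2e-10). LOC_Os05g48700 had 24 counts over ZH11 and 104 over drw1, or 2.20 in log2 units (standard error 0.43, edgeR adjusted p = 0.00021), and entered the test through the drw1 libraries. LOC_Os05g11810 fell from 22.1 ± 0.543 to 10.8 ± 1.59 CPM, or -1.02 in log2 units (standard error 0.11, edgeR adjusted p = 3.0e-07). Of the 2 loci not tested, LOC_Os05g43880 had 10 counts over ZH11 and 3 over drw1, and LOC_Os07g01340 had 0 in every library, where a count of 0 allows up to 3 counts, or 0.131 to 0.201 CPM per library.

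The signalling list was drawn up to hold the F-box protein that marks SLR1 for degradation, SLR1-like proteins without the DELLA motif, and other known modulators and targets of the response. The 6 loci passed the test, 2 as higher and 4 as lower, in a table where 70.1% of tested genes did so. LOC_Os01g45860 rose from 32.9 ± 1.13 CPM (ZH11) to 140 ± 4.26 CPM (drw1; SD, n = 3), or 2.08 in log2 units (standard error 0.07, edgeR adjusted p = 3.1e-14). LOC_Os05g49930 fell from 50.8 ± 2.92 to 4.97 ± 0.291 CPM, or -3.35 in log2 units (standard error 0.10, edgeR adjusted p = 1.5e-14). LOC_Os01g59660 fell from 45.4 ± 2.98 to 21.5 ± 2.36 CPM, or -1.08 in log2 units (standard error 0.09, edgeR adjusted p = 1.5e-08). The fall of LOC_Os02g36974 stayed under 2-fold, from 170 ± 9.20 to 88.0 ± 2.41 CPM.

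**Figure D5:**
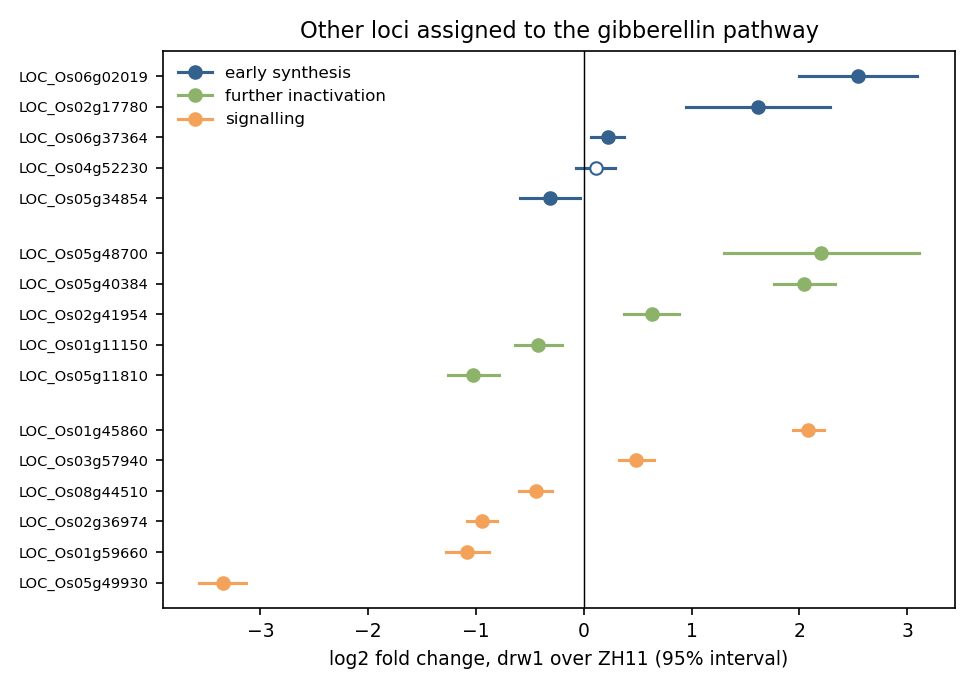
Log2 fold change of drw1 over ZH11 with its 95% interval for the 16 tested loci of the early synthesis, inactivation and signalling lists (colours), with an open point for the locus that was not past the threshold. Each list held loci on both sides of 0, from -3.35 (LOC_Os05g49930) to 2.55 (LOC_Os06g02019).

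The loci most like SLR1, the member with the highest mean CPM over all libraries, were found by Euclidean distance in log2 CPM over the 6 libraries. They were LOC_Os03g02920 at a distance of 0.109, LOC_Os03g55420 at 0.117 and LOC_Os12g36640 at 0.214. A small distance fixes a fold change close to that of SLR1, so these loci are given as a description only.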

How the data were processed

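RNA-seq reads were counted per gene model in 6 grain libraries, and the deposited counts are whole numbers without normalization by the authors, as the values show. The tools fastp, HISAT2, featureCounts and DESeq are named, without roles, in the submitters' processing notes. Not given in the sources used here are the genome build, annotation, strand setting and treatment of multiply matching reads, so reads shared by close family members or overlapping genes may be misassigned. The deposited gene length is another column and served for TPM and shares only.

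Genotypes were compared with edgeR 4.0.16 in R 4.3.3 (quasi-likelihood test, two-sided, genotype as the only factor, TMM factors, edgeR's default filter, Benjamini-Hochberg adjustment over all tested genes). Standard errors are approximate, being the absolute log2 fold change divided by the root of the F statistic. This procedure was checked on simulated counts in which only a small part of the genes was changed. That check does not cover the choice of scaling in data where 70.1% of tested genes are called. Alternatives used DESeq2 1.42.0, limma 3.58.1, other scalings and filters, the replicate number as a block, and each library left out. Replicate libraries differed by more than sampling noise.

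The 10 genes, the lists and the naming rule were chosen with earlier results of these data known. The rule names all 10 genes and other pathway loci called with at least 2-fold change. It also names the 3 loci nearest to the gene with the highest mean CPM. LOC_Os02g36974, LOC_Os05g34854, LOC_Os06g37364, LOC_Os04g52230 and the 2 untested loci were named, and neighbouring loci examined, after values were seen. Names follow the assignment of loci used to choose the 10 genes. The reference (assembly ASM3414082v1) holds 4 of the 10 symbols, 4 of them on the chromosome of the assigned locus. No sequences are shown.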

Additional observations from a re-analysis of the deposited data

How the results depend on the processing

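Over 14 alternatives, 120 of 125 values of the tested genes kept their side of the threshold, and the 5 exceptions were losses of the GA2ox1 call. The stricter filter left GA2ox1 untested. The number of the 10 genes called was 7 to 8, also when 1 library was left out. The GA20ox2 estimate, which was not past the threshold, changed sign with library totals (0.05), and under that scaling the log2 median over all tested genes was 0.19 instead of 0.03 (upper-quartile factors gave 0.14). Among 16 other pathway loci, 210 of 224 values kept their side. LOC_Os06g37364 lost its call without drw1 library 1 or 2 (adjusted p = 0.057 and 0.051, edgeR), and LOC_Os04g52230 gained one with library totals or upper-quartile factors (adjusted p = 0.015 and 0.034, edgeR). The number of these loci called was 13 to 15.

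With the replicate block, 15505 genes were called, beside 16395 without it, and 8 of the 10 genes and 14 other loci. LOC_Os05g34854 lost its call. Nothing in the labels links equal numbers across genotypes, and deviations from the genotype means correlated at -0.12, 0.02 and -0.10 for numbers 1 to 3.

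Shares in a family, ratios between genes or families, and the order of genes by TPM depend on gene length. From counts alone, the differences of drw1 minus ZH11 were -9.42 percentage points for GA20ox2, -21.9 for GA20ox3, -0.705 and 0.705 for GA3ox1 and GA3ox2, 28.6 for GA2ox3 and -29.0 for GA2ox6, in place of -6.16, -26.8, -0.961, 0.961, 34.2 and -34.8. No direction turned. Depth limits what can be said of GA3ox1 and GA2ox1, which are at trace level.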
